A study of Mus musculus with 12 samples.

Results

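The complement genes measured here were C1qa, C1qb, C1qc, C4b, C3, Cfb, Cfp, C3ar1 and C5ar1, 9 genes chosen by name from the 23238 gene symbols counted in 12 libraries of sorted mouse alveolar type II (ATII) cells. All 9 were listed, and all 9 passed the filter on low counts that left 13054 genes for testing. Each library came from 1 mouse, and each group held 3 mice. Mice carried p300 (Ep300) alleles with loxP sites around exon 9, and Cre under the surfactant protein C promoter, switched on by tamoxifen, was meant to delete the gene in ATII cells. Con mice were Spc-p300 f/f mice given PBS into the trachea and BLM mice were Spc-p300 f/f mice given bleomycin at 4 mg/kg. KO and KOBLM mice were Spc-p300 d/d mice given PBS and bleomycin, respectively. The labels call the undeleted animals WT and negative controls, and state for the whole series that mice received 10 mg/kg tamoxifen at the age of 8 weeks before bleomycin. A legend of the study describes ATII cells isolated after vehicle or tamoxifen, so whether Con and BLM mice received tamoxifen is uncertain. The time between bleomycin and sorting was not given in the sources used here. Cells were sorted as CD74+ EpCAM+ lung cells, and the QuantSeq kit read the 3′ end of polyadenylated RNA, so that counts do not grow with transcript length and levels of different genes can be set side by side per transcript.

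Complement is a set of plasma and cell-surface proteins that tags microbes and damaged cells for removal. C1q, built of the chains encoded by C1qa, C1qb and C1qc, starts the classical pathway by binding antibody complexes or altered surfaces, and C4 is then cleaved. C3 is the component on which the pathways meet, factor B (Cfb) forms the alternative pathway convertase with it, and properdin (Cfp) holds that convertase together. The fragments C3a and C5a signal through the receptors C3ar1 and C5ar1. In lung, macrophages are a known source of C1q, neutrophils and macrophages release properdin, both cell types carry C5ar1, and type II cells can make C3 and factor B.

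On GRCm38 (the assembly also called mm10), C1qb (chromosome 4, 136880129 to 136886187), C1qc (136889804 to 136893065) and C1qa (136895917 to 136898803) were neighbours on the minus strand, each with 3 exons in its longest coding transcript. C4b (chromosome 17, 34728380 to 34743882) and Cfb (chromosome 17, 34856374 to 34862518) lay in the same stretch of chromosome 17 as C4a (34809092 to 34823464), and C3 lay farther along it (57203970 to 57228136). C3ar1 was on chromosome 6 (122847138 to 122856161), C5ar1 on chromosome 7 (16246743 to 16259540) and Cfp on the X chromosome (20925454 to 20931555). C4a is a close copy of C4b. Of the 426 stretches of 75 bases in the last 500 bases of C4b, where the reads of this kit fall, 113 also occur in C4a, so that reads of these genes can be confused and values of C4b are uncertain to that extent. Cfb overlaps the annotated gene Gm20547 on the same strand, which was not among the counted symbols.

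RefSeq promoters were at hand for 6 of the 9 genes, without C1qa, C4b and Cfb. The 250 bases before the RefSeq start of C1qb, C1qc and C3ar1 are printed because these genes had high counts in the same libraries, as described further on. They read 5′ to 3′ on the minus strand of GRCm38.p6, at chr4:136886201-136886450, chr4:136892915-136893164 and chr6:122856158-122856407, and capitals mark the letters GAGGAA or their reverse complement, the core bound by the myeloid transcription factor PU.1.
C1qb: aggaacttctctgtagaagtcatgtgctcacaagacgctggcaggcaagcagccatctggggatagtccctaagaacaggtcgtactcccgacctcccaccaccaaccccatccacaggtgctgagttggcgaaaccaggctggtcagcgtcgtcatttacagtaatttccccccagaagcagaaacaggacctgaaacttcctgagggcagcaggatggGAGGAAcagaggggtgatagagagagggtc
C1qc: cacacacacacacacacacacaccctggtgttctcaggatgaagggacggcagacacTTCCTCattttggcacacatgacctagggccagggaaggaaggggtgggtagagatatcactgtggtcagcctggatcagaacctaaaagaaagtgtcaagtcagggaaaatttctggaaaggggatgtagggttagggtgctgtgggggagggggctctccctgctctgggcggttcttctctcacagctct
C3ar1: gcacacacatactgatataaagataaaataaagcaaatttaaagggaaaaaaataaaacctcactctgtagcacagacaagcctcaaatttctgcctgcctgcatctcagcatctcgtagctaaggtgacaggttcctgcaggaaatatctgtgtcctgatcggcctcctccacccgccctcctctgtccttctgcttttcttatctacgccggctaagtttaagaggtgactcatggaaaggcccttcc
The RefSeq start differs from the gene bounds of GENCODE given above, lying 151 bases inside C1qc and 202 bases inside C5ar1, and within 13 bases of the bound in the other 4 genes. Most of the C1qc and C5ar1 windows therefore lie inside the GENCODE gene. Counting back from the RefSeq start, the match lay at -30 to -25 in C1qb and, on the opposite strand, at -193 to -188 in C1qc, and C3ar1 held none. These letters occur on either strand in 23.3% of 32851 promoters of the same length. Of the other motifs searched on both strands, the C/EBP letters TTGCNNAA (in 9.56% of promoters) were found in C3 at -45 to -38, and the interferon-response letters GAAANNGAA (7.13%) were found on the opposite strand in C5ar1 at -66 to -58. The NF-kB letters GGANTTTCC (1.07%) and the STAT letters TTCNNNGAA (7.02%) were in none of the 6, and Cfp held none of the 5 motifs. A match of letters describes the window and is not a binding site.

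Library totals ran from 7005005 to 11153154 counts, so that 3 counts, taken as the detection floor, stood for 0.269 to 0.428 CPM (counts scaled to a library total of 1000000). The floor covers counting error only. Ep300, the targeted gene (chromosome 15, 81585351 to 81652077), was at 141, 143 and 51.0 CPM in Con and 145, 154 and 103 CPM in the libraries labelled KO, with 119, 90.5 and 42.6 CPM in BLM and 169, 54.2 and 96.0 CPM in those labelled KOBLM. These 3′ reads fall outside exon 9, so that they do not check its deletion. The study reports that it checked the deletion in primary ATII cells by qRT-PCR. Macrophage transcripts were abundant in the sorted cells: the summed level of 17 macrophage markers was 2257 to 39955 CPM, against 184 to 2169 CPM for 10 ATII markers, and Sftpc, the defining ATII transcript, was at 0.554 to 612 CPM. BLM 3 stood apart, with 6847 genes detected, the fewest of all libraries, and 8 of the 17 macrophage markers at 0. Results that turn on it are given with and without it. Differences between groups were fitted by quasi-likelihood in edgeR, and a gene was counted as called at a fold change over 1.5 with an unadjusted p under 0.05, the threshold of the study. By edgeR, 0 genes of the 13054 reached an adjusted p under 0.05 (Benjamini-Hochberg) in any of the 6 comparisons, in which 188 to 584 genes had an unadjusted p under 0.05. DESeq2 put 57 to 114 genes past the same fold at an adjusted p under 0.05.

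The C1q chains and the receptor C3ar1 had the largest differences among the 9 genes. At an unadjusted p in edgeR they were called higher in BLM than in Con, and C1qa and C3ar1 also in the libraries labelled KO. For C1qa and C3ar1 the groups overlapped in both comparisons. C1qa was at 10.7, 23.3 and 0 CPM in Con, 950.3, 956 and 16.3 CPM in BLM, 8.11, 568 and 123 CPM in KO, and 209, 67.6 and 363 CPM in KOBLM. The libraries BLM 1 and BLM 2 were the highest, whereas BLM 3 lay below Con 2, so that the groups Con and BLM overlapped. C1qb was at 0, 12.5 and 10.8 CPM in Con, 402, 565 and 25.1 CPM in BLM, 10.2, 263 and 1.20 CPM in KO, and 32.4, 29.2 and 165 CPM in KOBLM. C1qc was at 0, 17.8 and 0.0942 CPM in Con, 689, 1012 and 44.1 CPM in BLM, 15.0, 233 and 32.6 CPM in KO, and 57.7, 0.0963 and 246 CPM in KOBLM. For C1qb and C1qc every BLM library lay above every Con library. KO 2 and KOBLM 3 were the highest of their groups for all 3 chains.

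**Figure D1:**
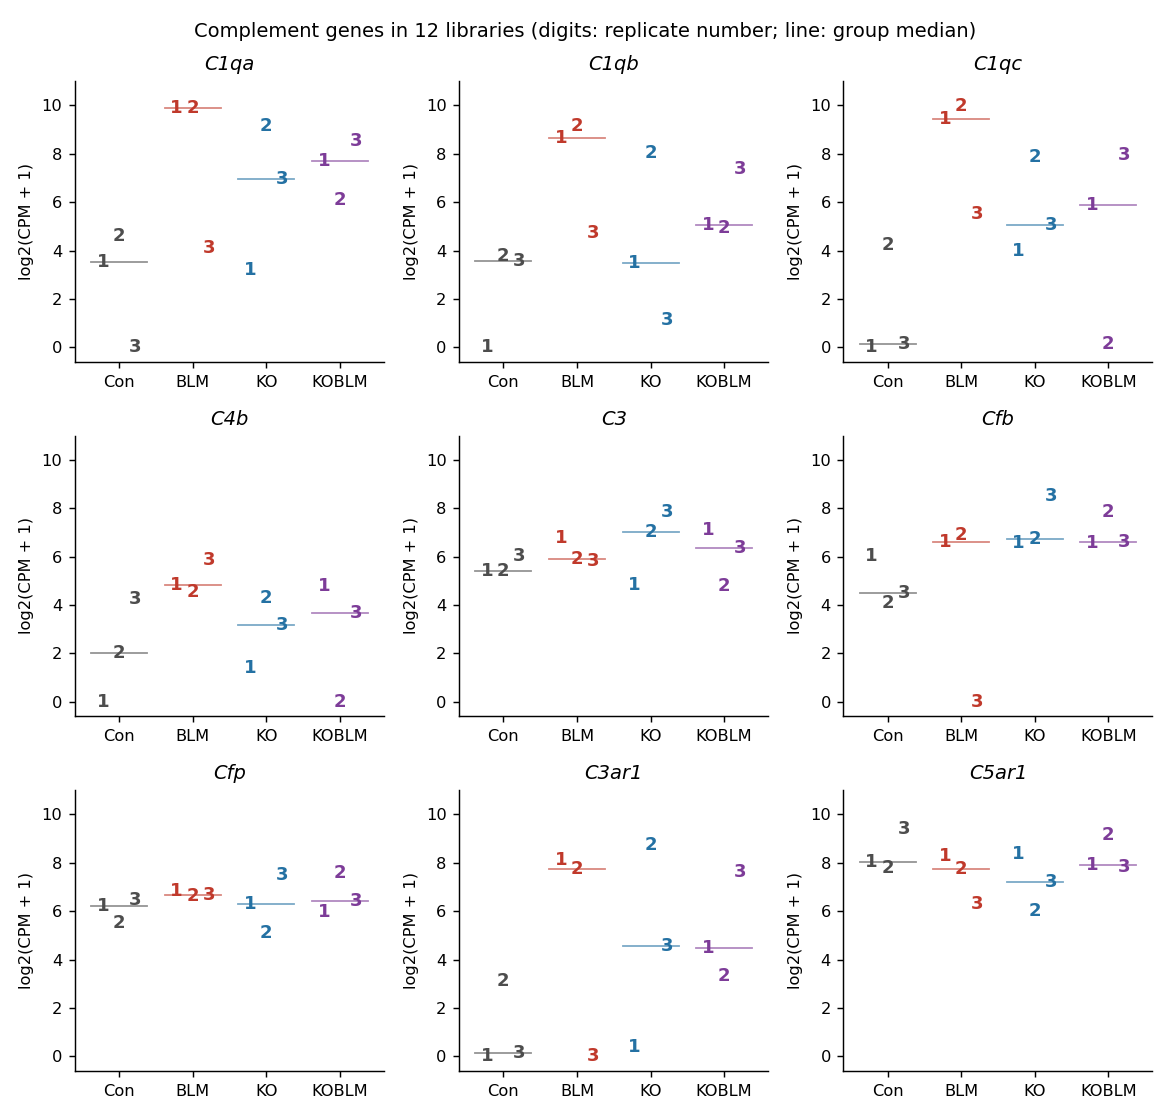
Level of each of the 9 complement genes, as log2(CPM + 1) on the y axis, in the groups Con, BLM, KO and KOBLM on the x axis. Each digit is 1 library at its replicate number and the line is the group median. The C1q chains and C3ar1 spread from 0 to above 400 CPM, with BLM 1, BLM 2, KO 2 and KOBLM 3 at the top, whereas C3, Cfp and C5ar1 were counted in every library.

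In the comparison of BLM with Con, which asks what bleomycin changed in mice with intact p300, edgeR called 4 of the 9 genes, all higher, where 4.27% of all genes tested were called in either direction. C1qa was higher by a log2 fold change of 5.92 ± 1.94 (SE), C1qb by 5.53 ± 2.01 and C1qc by 6.69 ± 2.42. C3ar1 was the other one, at 6.05 ± 2.70. The adjusted p over all genes was 0.995 for each of the 4 genes by edgeR (Benjamini-Hochberg), and DESeq2 put C1qa and C1qb, 2 of the 9, at an adjusted p under 0.05. As group means, C1qa was at 641 ± 541 CPM in BLM and 11.3 ± 11.7 CPM in Con (SD, n = 3), and C1qc at 582 ± 493 CPM against 5.95 ± 10.2 CPM (SD, n = 3). Exact permutation tests on log2(CPM + 1) gave p = 0.2 for C1qa, p = 0.1 for C1qb and C1qc and p = 0.4 for C3ar1. The smallest value that 3 libraries against 3 can give is 0.1.

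The 3 C1q calls held without BLM 3, at log2 fold changes of 6.50 for C1qa, 6.09 for C1qb and 7.24 for C1qc. BLM 1 and BLM 2 both lay above every Con library for C1qa, C1qb, C1qc and C3ar1, with mean CPM 84.1, 62.1, 143 and 95.2 times that of Con. The same held for C4b, Cfb and Cfp, at 3.52, 3.11 and 1.56 times. The share of all genes separated in this way without BLM 3 was not counted. Leaving out any 1 of the 6 libraries of the comparison kept C1qa, C1qb and C1qc past the threshold (log2 fold changes of 4.82 to 13.25), while C3ar1 lost its call in 4 of these 6 fits, those without Con 1, Con 3, BLM 1 or BLM 2.

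In the comparison of KO with Con, which concerns p300 deletion without bleomycin, 2 of the 9 genes were called, both higher, where 1.44% of all genes were. C1qa was higher by 4.57 ± 1.82 (log2 fold change ± SE), and C3ar1 by 6.09 ± 2.71, each with an adjusted p of 1 (edgeR, Benjamini-Hochberg). Exact permutation tests gave p = 0.3 for C1qa and p = 0.2 for C3ar1. C1qb (3.84 ± 1.85) and C1qc (4.17 ± 2.16) did not pass. The calls rested on KO 2, the only KO library with over 200 CPM of any of these 4 genes. Without it 0 of the 9 genes were called, and C1qa had a log2 fold change of 2.46, C3ar1 of 2.05 and C1qb of -0.35. Without Con 1 the count was also 0, without Con 3 it was 1, and without KO 1 it was 5, of which C5ar1 was lower and 4 were higher.

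In the comparison of KOBLM with BLM, which concerns p300 deletion under bleomycin, 0 of the 9 genes were called, where 3.16% of all genes were. The fitted log2 fold changes of the C1q chains were -1.59 ± 1.60 for C1qa, -2.12 ± 1.72 for C1qb and -2.50 ± 1.996 for C1qc (SE). Without BLM 3 they were -2.16, -2.68 and -3.06. Without KOBLM 3 they were -2.26, -3.50 and -4.36, and without BLM 2 they were -1.11, -1.41 and -1.75, with 0 genes called whichever library was left out. With all libraries the groups overlapped for these chains and C3ar1. Exact permutation tests gave p = 0.8 for C1qa, 0.4 for C1qb, 0.3 for C1qc and 0.9 for C3ar1. With BLM 3 set aside, BLM 1 and BLM 2 both lay above every KOBLM library for the 3 chains and C3ar1. The KOBLM mean was 0.224, 0.156 and 0.119 times theirs for C1qa, C1qb and C1qc. The share of all genes separated in this way without BLM 3 was not counted. In the comparison of KOBLM with KO, 0 of the 9 genes were called (1.69% of all genes), with log2 fold changes of the C1q chains between -0.43 and 0.02. In order of group means, C1qa was highest in BLM, followed by KO (233 ± 296 CPM), KOBLM (213 ± 148 CPM) and Con, and KO and KOBLM differed by less than their spread (SD, n = 3).

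Whether bleomycin acted alike in both genotypes was tested as the interaction of genotype and bleomycin, the log2 fold change of KOBLM over KO minus that of BLM over Con. It called 3 of the 9 genes, where 2.82% of all genes were called, and 0 of the 9 with the replicate number as a block, although the numbers were not found to pair the mice. The interaction was -6.15 ± 2.40 for C1qa (SE), -5.96 ± 2.52 for C1qb and -6.66 ± 2.93 for C1qc, with an adjusted p of 0.9999 (edgeR, Benjamini-Hochberg). Without KO 2, 0 of the 9 genes were called and the values were -4.03, -1.75 and -4.43. Without BLM 3, 5 genes were called, the 3 chains with C3ar1 (-7.76) and Cfb (-2.18). The count was also 5 without KO 1, and 1 gene was called without any 1 of Con 3, BLM 2, KOBLM 1 and KOBLM 2. Averaged over genotypes, bleomycin called 2 of the 9 genes (4.47% of all genes), C1qa at 2.84 ± 1.19 and C1qc at 3.35 ± 1.47. This count was 0 without any 1 of Con 1, BLM 2, KO 3 and KOBLM 3, 1 without Con 3 or KO 1, and 4 without KO 2. C1qb was at 2.55 ± 1.24, and the exact permutation test within genotypes gave p = 0.055 for it, 0.105 for C1qa and 0.17 for C1qc, with 0.005 the smallest value possible.

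**Figure D2:**
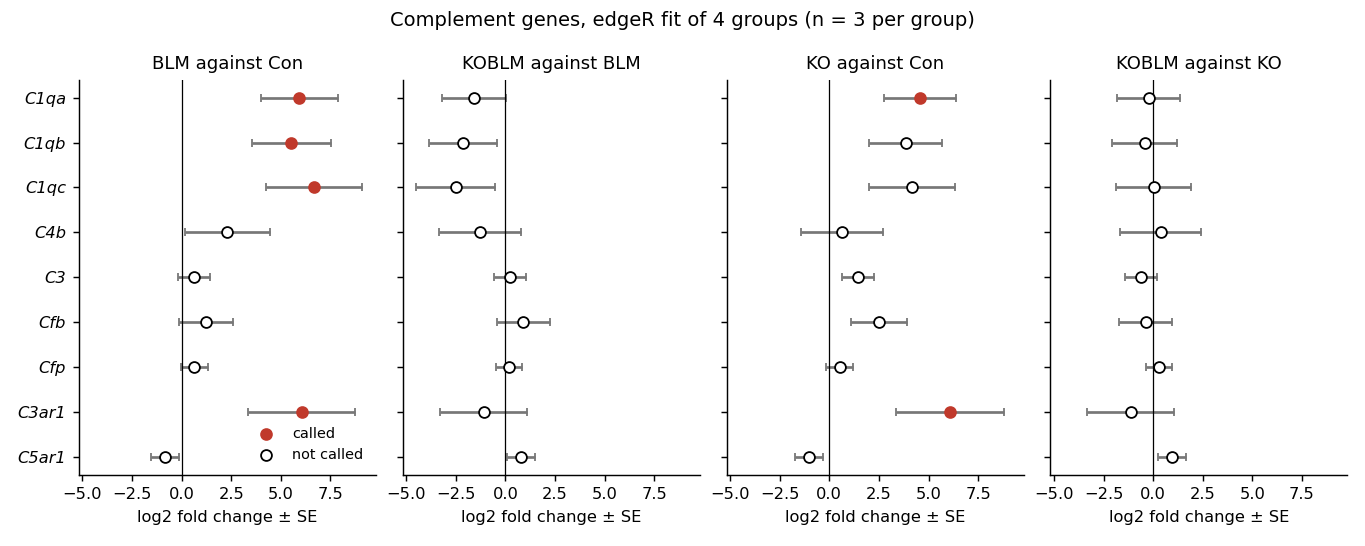
Log2 fold change ± SE of the 9 complement genes (y axis) from the edgeR fit, with 1 panel for each comparison of groups of 3 libraries. Filled points passed a fold of 1.5 at an unadjusted p under 0.05: C1qa, C1qb, C1qc and C3ar1 in BLM against Con, C1qa and C3ar1 in KO against Con, and no gene in the other panels.

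The 3 chains belong to 1 protein, and their summed level separated the libraries. It was 10.7, 53.6 and 10.9 CPM in Con, 2041, 2533 and 85.5 CPM in BLM, 33.4, 1065 and 157 CPM in KO, and 299, 96.9 and 774 CPM in KOBLM. BLM 2, BLM 1, KO 2, KOBLM 3 and KOBLM 1 were the 5 highest libraries. The chains did not hold a fixed ratio: C1qb had 4283 of the 19202 C1q counts of BLM 2 but 13 of the 1697 of KO 3, and C1qc had 7670 of those of BLM 2 but 1 of the 1006 of KOBLM 2. In Con 1 all 80 C1q counts were of C1qa, and in Con 3, 115 of the 116 were of C1qb.

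Markers of other cells moved with C1q. The same 5 libraries had the 5 highest summed levels of the 6 monocyte markers, at 956 CPM in BLM 2, 1911 CPM in BLM 1, 386 CPM in KO 2, 576 CPM in KOBLM 3 and 463 CPM in KOBLM 1, against 3.52 to 151 CPM in the other 7. By group, the monocyte sum ran from 40.3 to 151 CPM in Con, 99.8 to 1911 CPM in BLM, 3.52 to 386 CPM in KO and 50.0 to 576 CPM in KOBLM. All 6 monocyte markers exceeded 3 counts in each of the 5 libraries, and also in Con 2, Con 3 and KO 1, whereas 4 did in Con 1, 5 in KOBLM 2 and 1 in BLM 3 and in KO 3, with F13a1 at 0 in the last 3. The sum of the 17 macrophage markers did not follow C1q: it was 11310 to 24681 CPM in Con, 2257 to 11554 CPM in BLM, 12206 to 39955 CPM in KO and 9004 to 21138 CPM in KOBLM, and only 1 of its 5 highest libraries was among those 5. Neutrophil markers shared 3 of the 5 libraries and ATII markers 1, and the other lists (ATI, airway, dendritic, B cell, T and NK cell, fibroblast and endothelial) shared 0 to 3. Between BLM and Con 3 of the lists did not overlap. Fibroblast markers summed to 901 to 1390 CPM in BLM and 64.3 to 424 CPM in Con, ATII markers to 449 to 576 CPM in BLM and 637 to 2169 CPM in Con, and B cell markers to 0 to 10.6 CPM in BLM and 25.5 to 61.0 CPM in Con. In KOBLM these sums were 116 to 587, 184 to 682 and 12.1 to 42.7 CPM.

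Single markers were looked at after the values had been seen. Apoe, a lipid carrier made by macrophages, was at 2684, 3325, 2266, 3157 and 514 CPM in BLM 2, BLM 1, KO 2, KOBLM 3 and KOBLM 1, at 1422 CPM in BLM 3, and at 85.2 to 260 CPM in the others. Some other genes of the macrophage list went the opposite way. Siglecf and Ear2, which mark resident alveolar macrophages, were at 8.93 to 32.3 CPM and 321 to 667 CPM in these 5 libraries. They were at 175 to 400 CPM and 1757 to 2824 CPM in the other 7 except BLM 3, where they were at 0 and 53.3 CPM. Marco and Fabp4 of the same list overlapped instead. Marco was at 459 to 1447 CPM in these 5 libraries and 291 to 792 CPM in the other 7 except BLM 3, where it was at 0. Fabp4 was at 36.3 to 240 CPM in these 5 and 61.7 to 226.5 CPM in the others, with 0.897 CPM in BLM 3. Epcam, which encodes the epithelial protein used in the sort, was lowest in these 5 libraries, at 35.7, 9.56, 2.75, 2.99 and 10.8 CPM, against 76.8 to 329 CPM in the other 7. Cd74, which encodes the other protein of the sort, was not lowest there. It was at 2247.5, 1209, 460, 617 and 981 CPM in these 5 libraries and 476 to 1574 CPM in the other 7. Napsa, an ATII marker, was at 288, 214, 151 and 166 CPM in BLM 2, BLM 1, KOBLM 3 and KOBLM 1. It was at 87.8 CPM in KO 2 and 40.4 to 122 CPM in the other 7. The libraries with the most C1q were therefore also those with the most monocyte markers and the least Epcam RNA, 4 of them with 25.1 CPM of Sftpc or less. The part of these and of the fibroblast, ATII and B cell markers in the C1q results was not tested, and in sorted bulk samples more cells of a type and more RNA per cell cannot be told apart.

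**Figure D3:**
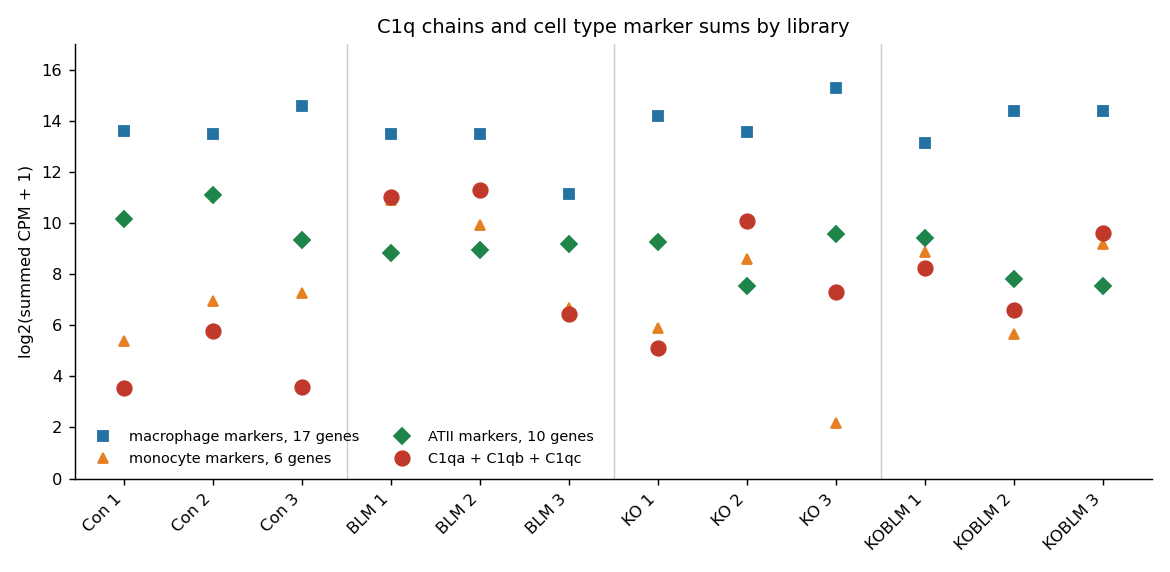
Summed CPM of the 3 C1q chains (circles) and of the macrophage, monocyte and ATII marker lists, as log2(summed CPM + 1) on the y axis, in each of the 12 libraries on the x axis. The circles and the monocyte triangles were highest in BLM 1, BLM 2, KO 2, KOBLM 1 and KOBLM 3 and nearly coincide in BLM 1, whereas the macrophage squares were highest in KO 3.

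C3ar1, the C3a receptor, followed the C1q chains. It was at 0, 7.59 and 0.0942 CPM in Con, 278, 210.0 and 0 CPM in BLM, 0.304, 426 and 22.5 CPM in KO, and 21.1, 8.86 and 193 CPM in KOBLM. KO 2, BLM 1, BLM 2 and KOBLM 3 were far above the rest, Con 1 and BLM 3 had no count, and only 1 Con library exceeded 3 counts. Its calls against Con are given above. In KOBLM against BLM its log2 fold change was -1.10 ± 2.19 (SE), and -1.68 without BLM 3.

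C5ar1, the C5a receptor, was among the most abundant of the 9 genes and was not called in any comparison of all libraries. It was at 261, 222 and 678 CPM in Con, 309, 213 and 78.2 CPM in BLM, 324, 63.5 and 145 CPM in KO, and 240.3, 561 and 226 CPM in KOBLM. The groups overlapped in each comparison, with log2 fold changes of -0.85 ± 0.71 in BLM against Con, 0.77 ± 0.71 in KOBLM against BLM, -1.02 ± 0.72 in KO against Con and 0.94 ± 0.71 in KOBLM against KO (SE). Without BLM 3 the first of these was -0.42 and the second 0.34. Without KO 1, C5ar1 was called lower in KO against Con, at -1.84, and higher in KOBLM against KO, at 1.76, whereas without Con 3 KO against Con was at -0.38.

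C4b, which encodes the component cleaved after C1q binds, was at 0, 3.10 and 18.0 CPM in Con, 27.4, 22.2 and 57.4 CPM in BLM, 1.62, 18.7 and 8.05 CPM in KO, and 26.8, 0 and 11.9 CPM in KOBLM. Every BLM library lay above every Con library, also without BLM 3, the highest of them. By edgeR the log2 fold change was 2.31 ± 2.14 (SE), so C4b was not called, and it was 1.98 without BLM 3. C4a was counted separately at 0 to 17.8 CPM, and with the shared stretches its part in these values was not tested.

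C3 was counted in all 12 libraries with a narrower range. It was at 41.5, 41.5 and 64.7 CPM in Con, 109, 58.2 and 55.9 CPM in BLM, 27.5, 130 and 225 CPM in KO, and 135, 26.2 and 80.9 CPM in KOBLM. No comparison called C3. The group means were 49.2 ± 13.4 CPM in Con, 74.3 ± 29.8 CPM in BLM, 127 ± 98.8 CPM in KO and 80.8 ± 54.5 CPM in KOBLM (SD, n = 3), and the largest log2 fold change was 1.45 ± 0.81 in KO against Con (SE). In BLM against Con it was 0.64 ± 0.80 (SE), and 0.89 without BLM 3.

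In the alternative pathway, Cfb was at 64.9, 16.0 and 21.5 CPM in Con, 96.4, 116 and 0 CPM in BLM, 94.3, 106 and 362 CPM in KO, and 93.3, 226 and 95.9 CPM in KOBLM. All KO libraries lay above all Con libraries, and so did BLM 1 and BLM 2, whereas BLM 3 had no count. Its log2 fold change was 2.49 ± 1.41 in KO against Con (SE) and 1.21 ± 1.36 in BLM against Con, with no call. Without BLM 3 Cfb was called in BLM against Con at 1.80.

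Cfp varied least of the 9 genes. It was at 72.0, 44.9 and 87.0 CPM in Con, 114, 97.4 and 99.7 CPM in BLM, 78.1, 32.8 and 177 CPM in KO, and 60.8, 189.8 and 84.9 CPM in KOBLM. The BLM libraries all lay above the Con libraries, at 104 ± 9.13 against 68.0 ± 21.3 CPM (SD, n = 3), but with TMM-scaled CPM BLM 3 (80.3) fell below Con 3 (81.2), so that the groups overlapped. The log2 fold change of 0.64 ± 0.67 was not called (SE), and was 0.79 without BLM 3.

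Groups without overlap were thus found for C1qb, C1qc, C4b and Cfp in BLM against Con, 4 of 9 genes and all higher, where 17.1% of all genes did not overlap in either direction (695 higher and 1542 lower). With TMM-scaled CPM it was 3 of the 9, without Cfp. In KO against Con this held for 1 of 9, Cfb, where 9.74% of all genes did not overlap. It held for 0 of 9 in KOBLM against BLM (11% of all genes) and 0 of 9 in KOBLM against KO (6.82%). The median log2 fold change of the 9 genes was 2.31 in BLM against Con, beside -0.08 over all genes tested. It was 2.49 beside -0.09 in KO against Con, -1.10 beside 0.10 in KOBLM against BLM, and -0.23 beside 0.08 in KOBLM against KO. BLM is the control of KOBLM against BLM and Con that of the comparisons with BLM and KO, so these values share libraries.

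The likeness of 2 genes across libraries was described by the proportionality coefficient of their log2 CPM, over 12 libraries that share depth and cell makeup. It is 1 for a constant ratio and near 0 for unrelated levels, but it is also low where 2 genes differ much in spread. The SD of log2(CPM + 1) was 0.94 for C3 and 0.72 for Cfp, against 2.88 to 3.52 for the C1q chains. C3ar1 was close to C1qa (0.88), C1qc (0.76) and C1qb (0.73), and the C1q chains were at 0.63 to 0.77 to each other. C4b was at 0.64 to C1qc and 0.58 to C1qb, but at 0.27 to C1qa and 0.35 to C3ar1, to which Cfb was closer (0.42 and 0.50). This order turned on BLM 3, where Cfb and C3ar1 had no count. Without BLM 3, C4b was at 0.55 and Cfb at 0.25 to C3ar1, and they were at 0.35 and 0.37 to C1qa. C3, Cfb and Cfp were at 0.42 or less to each C1q chain, and C5ar1 was below 0 to all 3 chains and to C3ar1. Without BLM 3, C3ar1 was at 0.91, 0.85 and 0.80 to C1qa, C1qc and C1qb.

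**Figure D4:**
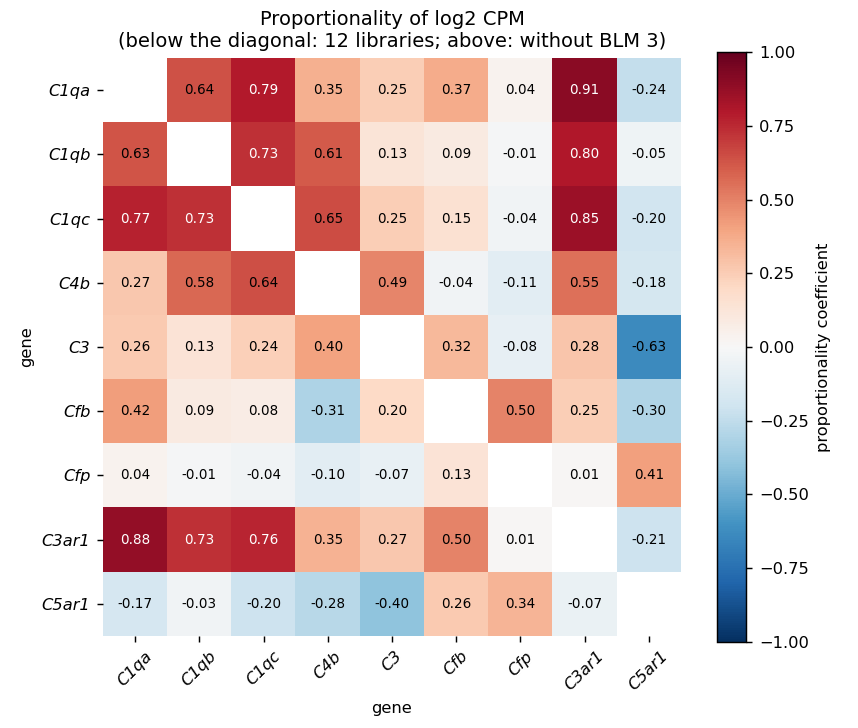
Proportionality coefficient of the log2 CPM of each pair of the 9 complement genes (both axes), over 12 libraries below the diagonal and without BLM 3 above it, on a colour scale from -1 to 1. C1qa, C1qb, C1qc and C3ar1 form the block of high values, C4b is nearest to C1qb and C1qc, and the row of C5ar1 is at or below 0.34 over 12 libraries.

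Among 8912 genes of at least 10 CPM on average, C3ar1 was the gene most like C1qa, followed by Adam8 (0.88), a metalloprotease of leukocytes, and Tnfsf14 (0.87), a cytokine of the TNF family. Saa3 (0.92), an acute-phase protein, B4galt6 (0.88) and Mmp14 (0.88), a membrane metalloprotease, were most like C1qb. Ccl17 (0.93), a chemokine, AA467197 (0.87) and Runx3 (0.87) were most like C1qc. Ank (0.96), Ippk (0.90) and Nt5dc2 (0.89) were nearest to C4b. C3 had Mrps28 (0.87), Tmem19 (0.85) and Zfand5 (0.74), and Cfp had Eif4ebp1 (0.90), Psma2 (0.83) and Ndufb5 (0.83). Cfb had Gtf2a2 (0.96), Mbd2 (0.95) and Arl8a (0.95), which without BLM 3, where Cfb had no count, were at 0.88, 0.76 and 0.61. C3ar1 had C1qa, Prnp (0.86) and Tnfsf14 (0.86), and C5ar1 had Gm6402 (0.89), Cebpd (0.86) and Dnajb9 (0.86), which without BLM 3 were at 0.83, 0.85 and 0.78 and no longer among its 3 nearest genes. Without BLM 3 only C1qa and C1qb kept the same 3 nearest genes, with Adam8 (0.93) first for C1qa. Prnp (0.93) was then nearest to C1qc, Rsad2 (0.97) to C4b and Adam8 (0.96) to C3ar1. Zfand5 then ranked 21 for C3, and Psma2 and Ndufb5 ranked 10 and 9 for Cfp.

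The rest of the complement system was represented by a list of 46 genes, of which 45 were counted and 24 passed the filter on low counts. In BLM against Con 2 of the 24 were called, both lower (without BLM 3, 2 lower and 1 higher), where 4.27% of all genes tested were called. In KOBLM against BLM 2 were called, both higher (3.16% of all genes), and in KO against Con none of the 24 was called (1.44%). In KOBLM against KO 2 were higher and 1 was lower (1.69%). Averaged over genotypes 3 were higher and 2 lower (4.47%), and in the interaction 1 was higher (2.82%). The median log2 fold change of the 24 genes was -0.01 in BLM against Con, beside 2.31 for the 9 genes. Of the 45 genes counted, 4 had no count in any library. The receptors were the most abundant, with all 7 past the filter and mean levels from 1.04 to 635 CPM, whereas 3 of the 7 genes for C5 and the terminal components passed, with no mean above 4.52 CPM.

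Of the complement receptors of leukocytes, Itgax was called and the others were not. Itgax (CD11c), a chain of complement receptor 4 carried by alveolar macrophages and dendritic cells, was at 728, 552 and 522 CPM in Con and 85.4, 161 and 141 CPM in BLM, with no overlap. It fell by 2.20 ± 0.53 on the log2 scale (SE), past the threshold of a call, and it was higher in KOBLM (287, 736 and 317 CPM) than in BLM by 1.85 ± 0.52, again with no overlap. Its interaction was 2.07 ± 0.72, opposite in sign to that of the C1q chains. The adjusted p was between 0.995 and 1 in these comparisons (edgeR, Benjamini-Hochberg). Itgam (CD11b), a chain of complement receptor 3 on monocytes and neutrophils, was at 16.9, 21.9 and 63.7 CPM in Con, 413, 314 and 0 CPM in BLM, 17.1, 575 and 0 CPM in KO, and 238, 126 and 308 CPM in KOBLM, with no call. BLM over Con was 2.98 ± 2.09 for it on the log2 scale (SE), with BLM 3 at 0. Its 5 highest libraries were those with the most C1q. Itgb2, the beta chain shared by both receptors, was at 44.0 to 1234 CPM, Cd93 at 0.179 to 625 CPM, Cr1l, a membrane regulator, at 0 to 124 CPM and Serping1, the C1 inhibitor, at 0 to 136 CPM, with no call and with the lowest value in BLM 3 for all 4, together with KO 3 for Serping1.

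Hc, which encodes C5, was called lower in BLM than in Con, at an adjusted p of 0.995 (edgeR, Benjamini-Hochberg). It was at 7.36, 23.8 and 12.6 CPM in Con and at 0 in all 6 bleomycin libraries. The Con mean was 40.1 times the floor of 3 counts per library in BLM. In KO it was at 5.78, 4.67 and 0 CPM, a mean of 10.2 times the floor in KOBLM, and it was called lower in KOBLM. Values of 0 were common in some of these libraries, at 50.9% of all tested genes in BLM 3 and 33.0% in KOBLM 2. The other called genes were low. Fcna, a ficolin of the lectin pathway, was at 0, 14.4 and 4.54 CPM in KOBLM. Cd59a, a membrane inhibitor of the terminal complex, was at 5.89, 4.91 and 1.88 CPM there. Both were at 0 in every KO library, and their KOBLM means were 19.1 and 12.8 times the floor. Cd55, which speeds the decay of convertases, was at 1.34, 7.22 and 4.32 CPM in KOBLM and 0 in every BLM library. Its KOBLM mean was 11.8 times the floor. The floor covers counting error only, so these ratios do not bound the difference between mice. C7, a terminal component, was at 0 in all 6 PBS libraries and at 8.85, 4.49 and 0 CPM in BLM and 10.0, 0 and 0 CPM in KOBLM, and was called with bleomycin averaged over genotypes. The counts of these calls rest on few libraries. In KOBLM against KO none of the 24 genes was called without KO 1 or without KO 2, and 1 was without any 1 KOBLM library. In KOBLM against BLM 1 was called without BLM 1, BLM 3 or any 1 KOBLM library, and in BLM against Con 1 was called without BLM 1.

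**Figure D5:**
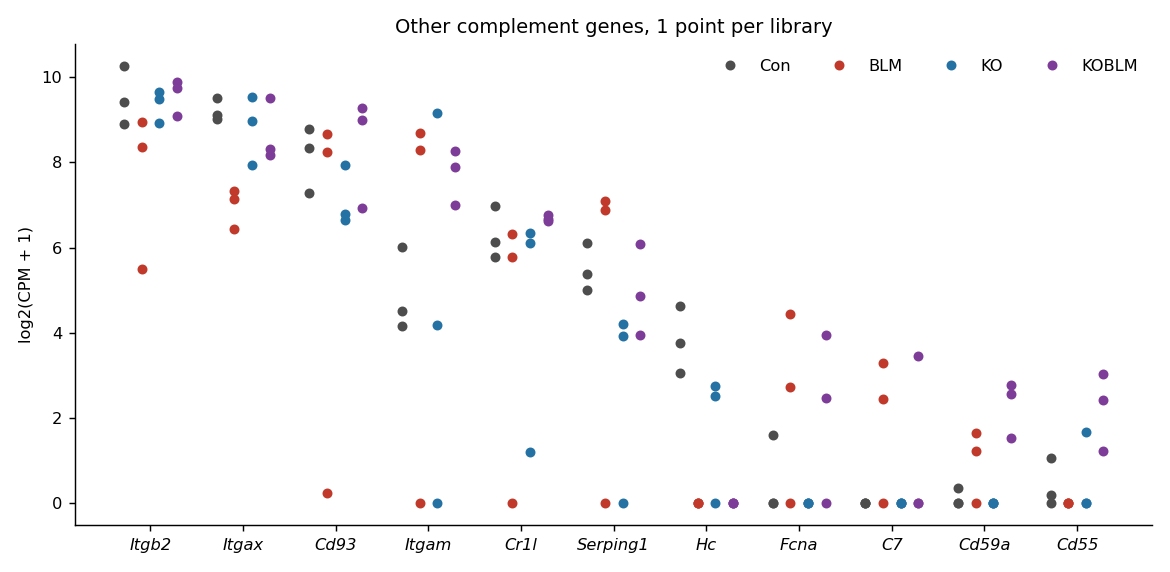
Level of the 6 most abundant other complement genes and of those called in some comparison, as log2(CPM + 1) on the y axis, with 1 point for each library and the groups in colour (legend). Itgax was lower in all BLM libraries than in all others, and Hc was at 0 in the 6 bleomycin libraries.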

How the data were processed

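RNA of sorted ATII cells was counted in 12 libraries, 3 for each of Con, BLM, KO and KOBLM, grouped by the labels. The authors deposited raw counts per gene symbol without normalization. The submitters' processing notes name Bowtie2, edgeR and the build mm10. The counting program was not given in the sources used here. Entries of symbols listed more than once were summed. The reads carry no molecular identifiers, so floors cover counting error only. Library totals were 7005005 to 11153154 counts.

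The 9 genes and the gene lists were chosen with earlier results of these data known. Genes were filtered with filterByExpr (minimum count 10), scaled by TMM and fitted with the quasi-likelihood model of edgeR 4.0.16, 4 groups in 1 model with 8 residual degrees of freedom, and p values were adjusted by Benjamini-Hochberg over 13054 genes. The steps were tested on simulated data. CPM are counts scaled to the library total, and log2 CPM for likeness used TMM factors and a prior count of 2. Single genes were compared with two-sided exact permutation tests of log2(CPM + 1). Of other complement genes, the 6 of highest mean and those called in any comparison are named, and for each of the 9 genes the 3 most proportional ones. Markers of ATII, ATI, airway, macrophage, neutrophil, monocyte, dendritic, B, T and NK, fibroblast and endothelial cells were summed. Alternatives were DESeq2 1.42.0, its size factors, library size alone, no filter, 2 groups per model, an adjusted p, a replicate block, TMM-scaled CPM and each library left out. Positions are from GENCODE M21, and promoters from RefSeq on GRCm38.p6. R 4.3.3 and Python 3.11.15 were used.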

Additional observations from a re-analysis of the deposited data

Results flagged for a closer look

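The effect of bleomycin was compared between the genotypes by a test of the interaction in edgeR, at unadjusted p values. It called 3 of the 9 genes and 1 of the 24 other complement genes tested, where 2.82% of all genes were called. The difference was -6.15 for C1qa, -5.96 for C1qb and -6.66 for C1qc on the log2 scale. These chains were called higher in BLM than in Con, with no call between the libraries labelled KO and KOBLM. For Itgax the difference was 2.07, with lower levels in BLM than in Con. None of these passed an adjusted p under 0.05 in edgeR, and the 3 C1q values rest on KO 2, as given with the comparison. With the replicate block 0 of the 9 genes were called. No group had 4 libraries, so single outlying libraries were not tested.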

How the results depend on the processing

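Of 266 fold changes of the 9 genes under settings other than a left-out library, 238 kept their direction and side of the threshold, 18 came to pass it, 4 no longer passed and 6 turned. At an adjusted p under 0.05 in edgeR every count of called genes became 0, for the 9 genes and for the other complement genes. Without a filter on low counts, 5 of the 9 genes were called in KO against Con and 4 with bleomycin averaged over genotypes, and of the other complement genes 4 in BLM against Con and 1 in KO against Con. With only the groups compared in the model, 4 of the 9 genes were called in KO against Con, and 1 of the other complement genes in KOBLM against KO. In KOBLM against KO, C1qc turned to -0.068 with DESeq2 size factors, -0.033 without a filter and -0.069 with DESeq2. The cause was not tested.

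Samples of the same replicate number did not deviate together: over 18 such pairs the correlation of deviations from the group means was -0.12 to 0.10, none over 0.1, so the labels' numbers do not pair the mice. With the replicate block, 4 of the 9 genes were called with bleomycin averaged over genotypes and 0 in the interaction, and of the other complement genes 2 with bleomycin averaged and 0 in KOBLM against KO. With the replicate block, KOBLM against KO turned to 1.10 for C1qa, 0.93 for C1qb and 2.05 for C3ar1.

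With each library left out in turn, the number called among the 9 genes ran from 0 to 5 in KO against Con and in the interaction, 0 to 1 in KOBLM against KO and 0 to 4 with bleomycin averaged. For the other complement genes it ran from 1 to 3 in BLM against Con, 1 to 2 in KOBLM against BLM, 0 to 2 in KOBLM against KO, 3 to 6 with bleomycin averaged and 1 to 2 in the interaction. Where a left-out library turned a log2 fold change, its range was, in KOBLM against BLM, -0.32 to 0.65 for C3 and -0.38 to 0.51 for Cfp. In KO against Con it was -0.35 to 4.42 for C1qb, -0.53 to 2.72 for C4b and -0.10 to 0.92 for Cfp. In KOBLM against KO it was -0.91 to 1.88 for C1qa, -1.80 to 3.77 for C1qb, -1.84 to 2.25 for C1qc, -0.70 to 1.55 for C4b, -0.86 to 0.32 for Cfb, -0.26 to 0.92 for Cfp and -3.52 to 2.92 for C3ar1.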

Other observations

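The counts of the 9 genes fell into separate classes. Of their 108 values, 8 were at 0, 4 were at 1 to 3 counts, none lay between 4 and 9 counts, and 96 were at 10 or more, with 13 the smallest count above 3. Over all genes tested, 18.6% of 156648 values were at 0, 2.22% at 1 to 3, 1.84% at 4 to 9 and 77.3% at 10 or more counts. The share at 0 was 5.40% in BLM 1 and 50.9% in BLM 3, 34.6% in KO 3 and 33.0% in KOBLM 2. Libraries with no count stood beside others of the same group with many: C3ar1 had 0 counts in BLM 3 beside 1946 and 1592 in BLM 1 and BLM 2, Cfb had 0 in BLM 3 beside 675 and 881, and C1qa had 0 in Con 3 beside 80 and 218.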
